A study of Mus musculus with 24 samples.

Results

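Neurotrophin and GDNF signaling genes were followed in mouse reward circuitry through 9 genes, chosen by symbol: the secreted ligands and ligand-related peptides Bdnf, Ntf3, Gdnf and Vgf, and the receptors Ntrk2, Ntrk3, Ret, Gfra1 and Gfra2. All 9 symbols were found, out of 30270 genes in the tables, each once in every one of 8 tables. The libraries came from bilateral micropunches of the nucleus accumbens and of the ventral tegmental area (VTA) of 12 mice on a C57BL/6 background, 3 for each combination of genotype and injection, so that 24 libraries were analysed. The mice were wild-type or Vdr-/-, that is, without the vitamin D receptor in all tissues, and were injected intraperitoneally with PBS or with 5 mg/kg morphine. The study's results place tissue collection 90 min after either injection, while its methods for tissue punches give saline controls an earlier time than this, and if so, time and injection cannot be told apart. Vdr-/- mice were raised on a diet rich in calcium and lactose, and whether wild-type mice shared it was not given in the sources used here, nor were the age and sex of these mice.

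Neurotrophins are secreted growth factors that act on Trk receptor tyrosine kinases: BDNF binds TrkB, the product of Ntrk2, and NT-3, the product of Ntf3, binds TrkC, the product of Ntrk3. GDNF binds a membrane-anchored coreceptor, GFRα1, and the complex activates the receptor tyrosine kinase RET, while GFRα2 is the preferred coreceptor of the related ligand neurturin. In the mesolimbic system RET is known as a receptor of dopamine neurons, BDNF reaches the accumbens largely by transport in cortical and midbrain axons, and Vgf, a gene induced by neurotrophins, encodes a precursor of secreted neuropeptides.

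Bdnf lies at chr2:109674700-109727007 on the plus strand of GRCm38, Ntf3 at chr6:126101412-126166910 on the minus strand, Gdnf at chr15:7810846-7837575 on the plus strand and Vgf at chr5:137026392-137033351 on the plus strand. Among the receptors, Ntrk2 lies at chr13:58806569-59133970 on the plus strand, Ntrk3 at chr7:78175959-78738012 on the minus strand, Ret at chr6:118151745-118197718 on the minus strand, Gfra1 at chr19:58235604-58455909 on the minus strand and Gfra2 at chr14:70890120-70979838 on the plus strand. All 9 are protein-coding genes, and the values are reads over all exons of a gene. The antisense gene Gm45346 shares 896 exon bases with Bdnf, and the antisense gene Gm16277 shares 416 with Gfra1; the library kit keeps strand, but the strand setting of the counting was not given in the sources used here.

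Bdnf is transcribed from several alternative starts, and counts per gene cannot tell which was used. RefSeq on GRCm38.p6 gave 13 promoter windows of 250 bases before a start for 5 of the members (Bdnf, Ntf3, Gdnf, Ntrk2 and Gfra1), 7 of them for Bdnf. The cAMP response element has the letters TGACGTCA, and its half-site, which the full element contains, is CGTCA; both were searched on both strands. The full element was in 0 of the 13 windows and in 1.55% of the 32851 windows of all genes, and the half-site was in 2 of 13 and in 17.8% of all windows. Of the following windows, each 100 bases that end directly before a start and read 5′ to 3′, those of an internal Bdnf start and of Gdnf are shown because they hold the half-site, in capitals, and those of the first Bdnf start and of Ntrk2 as members without it.
Bdnf, chr2:109692336-109692435, plus strand: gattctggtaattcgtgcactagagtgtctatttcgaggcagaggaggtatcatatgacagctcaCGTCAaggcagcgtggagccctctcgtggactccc
Gdnf, chr15:7809948-7810047, plus strand: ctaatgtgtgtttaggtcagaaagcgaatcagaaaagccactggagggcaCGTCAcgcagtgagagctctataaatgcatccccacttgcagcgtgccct
Bdnf, chr2:109674600-109674699, plus strand: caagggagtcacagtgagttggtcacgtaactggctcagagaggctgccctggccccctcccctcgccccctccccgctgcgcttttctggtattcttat
Ntrk2, chr13:58806469-58806568, plus strand: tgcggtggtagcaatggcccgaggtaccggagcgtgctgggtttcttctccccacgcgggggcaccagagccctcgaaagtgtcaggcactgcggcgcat
The match begins 35 bases before the Bdnf start and 50 bases before the Gdnf start. These matches are letters in a window, not measured binding sites.

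Depth ranged from 9328726 to 30184426 reads on genes per library, with medians of 16578976 (nucleus accumbens) and 17800599 (VTA). Levels are given as CPM, the reads of a gene scaled to a common total of reads on genes. The knocked-out gene, Vdr, held 0 to 17 reads per library without being lower in knockouts, so it gave no check of genotype, and genotypes were taken from the sample labels. In the nucleus accumbens, the library of wild-type PBS mouse 2 stood apart: across 15980 genes, the rank correlation of its ratio to the other libraries with exon length was -0.315, against -0.0971 to 0.162 in the other 11. Medium spiny neuron markers summed to 2618 to 5159 CPM in accumbens libraries and to 221 to 315 CPM in VTA libraries. Dopamine neuron markers summed to 213 to 2903 CPM in VTA libraries and to 57.6 to 98.4 CPM in accumbens libraries. In bulk tissue, fewer cells of a type and less RNA per cell cannot be told apart.

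The 2 regions differed in most members. Gdnf and Ntrk3 were higher in the nucleus accumbens, while Ret, Ntf3, Bdnf and Gfra2 were higher in the VTA, 6 of 9 members against 71.5% of all 16147 genes tested, so the members' share was close to that of genes at large. Ret had the largest difference of the 9 members: it lay at 4.99 to 28.6 CPM (median 11.3) in the nucleus accumbens while VTA libraries lay at 72.3 to 567 CPM (median 253). Ret was higher in the VTA in 12 of 12 mice, and its log2 difference, nucleus accumbens minus VTA within a mouse, was -4.34 ± 0.40 (SE; limma, Benjamini-Hochberg adjusted p = 1.25e-07, n = 12 mice). The ranges of the regions did not overlap.

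Gdnf, the ligand of the RET complex, had the opposite distribution. It held 14 to 68 reads in accumbens libraries (1.28 to 4.06 CPM, median 2.55) and 2 to 14 reads in VTA libraries (0.136 to 0.627 CPM, median 0.393). Its level was higher in the nucleus accumbens in 12 of 12 mice, with a log2 difference of 2.62 ± 0.20 (limma, adjusted p = 1.45e-08). The ligand mRNA was thus low in the region where Ret mRNA was high. Gfra1, the coreceptor gene, did not pass between regions over all mice and was higher in the nucleus accumbens in 7 of 12 mice. Its direction differed by injection. In wild-type PBS mice it lay at 88.1 to 95.8 CPM in the nucleus accumbens and 115 to 129 CPM in the VTA. In Vdr-/- PBS mice it lay at 89.5 to 91.0 and 81.7 to 121 CPM. After morphine it was higher in the nucleus accumbens, at 103 to 127 against 65.4 to 73.4 CPM in wild-type and 107 to 127 against 74.2 to 83.6 CPM in Vdr-/- mice.

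Bdnf was higher in the VTA in 12 of 12 mice, at 15.1 to 28.7 CPM (median 20.6) against 3.998 to 20.5 CPM (median 11.6) in the nucleus accumbens. The ranges overlapped across mice, and the within-mouse log2 difference was -0.99 ± 0.17 (limma, adjusted p = 6.75e-05). Ntf3 was near the limit of detection in the nucleus accumbens, with 0 to 10 reads per library; the single library at 0 reads, wild-type PBS mouse 1, allows a level of up to 0.182 CPM at 3 reads, for counting error only. In the VTA Ntf3 held 4 to 71 reads, and its log2 difference was -1.96 ± 0.37 (limma, adjusted p = 0.000193), again with 12 of 12 mice higher in the VTA.

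Ntrk3 was higher in the nucleus accumbens in 11 of 12 mice (log2 difference 0.33 ± 0.06, limma, adjusted p = 0.00036), and Gfra2 was higher in the VTA in 10 of 12 mice (-0.41 ± 0.10, adjusted p = 0.00142). Within single groups of 3 mice, Ntrk3 did not pass in wild-type PBS mice (0.28, limma, adjusted p = 0.234). That group holds the accumbens library of mouse 2, which stood apart, with Ntrk3 at 183 CPM against 329 and 292 CPM in mice 1 and 3. Gfra2 did not pass in wild-type PBS mice (-0.44, limma, adjusted p = 0.0729) or in Vdr-/- morphine mice (-0.12, adjusted p = 0.221). The differences of Vgf, Ntrk2 and Gfra1 lay between -0.08 and 0.23, with adjusted p from 0.11 to 0.25.

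Compared per kb of exon, the level of Vgf had a median of 68.0 CPM per kb in the nucleus accumbens and that of Ntrk2 47.4, and their ranges over 12 mice overlapped. Gfra1 followed at 18.1 CPM per kb, apart from Ntrk2, and Gfra2 (11.5) and Ntrk3 (9.55) overlapped below it. Bdnf (1.87), Ret (1.67), Gdnf (0.694) and Ntf3 (0.130) formed the low end, each overlapping its neighbour. In the VTA, Vgf (71.9 CPM per kb), Ntrk2 (51.3), Ret (37.4), Gfra1 (15.1) and Gfra2 (14.7) each overlapped the next, and Ntrk3 (7.35), Bdnf (3.32) and Ntf3 (0.590) followed with ranges apart from the one above, while Gdnf (0.107) overlapped Ntf3. The receptor mRNAs thus lay above Bdnf, Ntf3 and Gdnf in both regions, except for Ret in the nucleus accumbens.

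**Figure D1:**
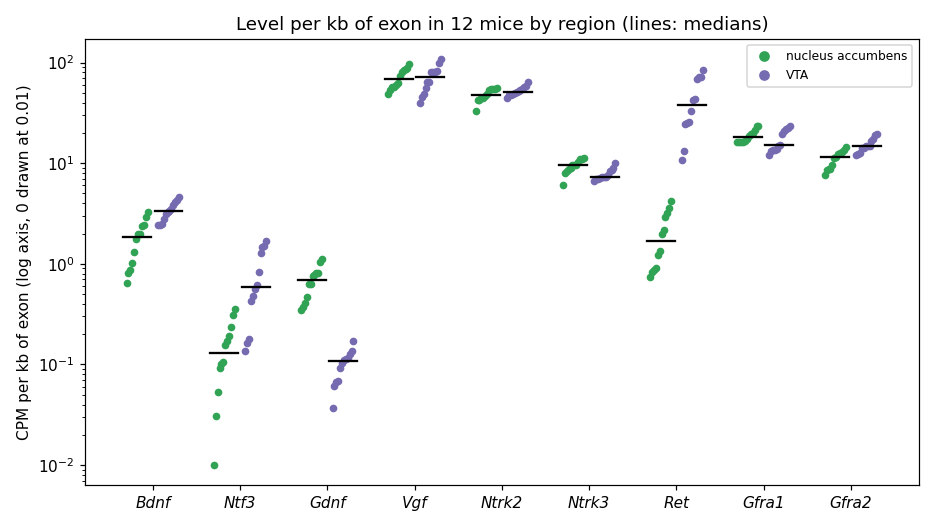
Level per kb of exon (CPM per kb, log axis) of the 9 members in 12 nucleus accumbens libraries (green) and 12 VTA libraries (purple), sorted by value within each column; lines are medians, and the single value of 0 (Ntf3) is drawn at 0.01. The columns of Ret lie apart, with medians of 1.67 and 37.4, and those of Gdnf lie apart in the other direction, with medians of 0.694 and 0.107.

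Morphine and PBS were compared first in the nucleus accumbens. In Vdr-/- mice, 6 of the 8 members tested rose with morphine, namely Bdnf, Vgf, Ntrk2, Ret, Gfra1 and Gfra2, at a threshold of 0.05 on the adjusted p of limma. None of the 8 fell in this comparison, where 19.1% of 15820 genes passed in either direction and 9.94% rose. Ntf3 had a mean value under 10 and was not tested. Fold changes are on the scale of log2(normalized count + 1).

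Ret lay at 6.09, 8.22 and 5.92 CPM in Vdr-/- PBS mice and at 21.8, 19.7 and 28.6 CPM in Vdr-/- morphine mice. The groups did not overlap, and the log2 fold change was 1.74 ± 0.15 (limma, adjusted p = 0.000131), a 3.35-fold rise. In wild-type mice Ret lay at 9.03, 4.99 and 5.55 CPM after PBS and at 14.7, 24.1 and 13.5 CPM after morphine, again without overlap. The wild-type change of 1.39 ± 0.29 missed the threshold with limma (adjusted p = 0.0804) and passed with DESeq2 (adjusted p = 0.000348). The summed level of 10 dopamine neuron markers was 73.5 to 95.6 CPM in Vdr-/- PBS mice and 77.5 to 80.8 CPM in Vdr-/- morphine mice, overlapping. Of the 6 of these markers that were tested, Slc6a3 fell in Vdr-/- mice and none rose, and Foxa2 was at 0 in every accumbens group. Slc6a3 and Th were low there, at 0.530 to 4.44 CPM and 5.38 to 9.31 CPM in Vdr-/- mice. Most of the sum in the nucleus accumbens thus came from other markers of the list. Of 4 cholinergic neuron markers, 1 rose in Vdr-/- mice and 0 in wild-type mice. The part of these cell types in the Ret change was not tested.

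Bdnf lay at 11.0, 6.33 and 5.40 CPM in Vdr-/- PBS mice 7, 8 and 9, and at 17.95, 20.5 and 15.1 CPM in Vdr-/- morphine mice. All 3 morphine libraries were above all 3 PBS libraries, with a log2 fold change of 1.25 ± 0.22 (limma, adjusted p = 0.0028) and an exact two-sided permutation p of 0.1, the smallest that 3 against 3 can give. In wild-type mice Bdnf lay at 3.998, 4.99 and 12.2 CPM after PBS and at 8.17, 12.3 and 14.8 CPM after morphine, and the groups overlapped through PBS mouse 3 (log2 fold change 0.84 ± 0.42, limma, adjusted p = 0.365; exact permutation p = 0.3).

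The PBS libraries with the most Bdnf, wild-type mouse 3 and Vdr-/- mouse 7, also held the highest sums of 10 cortical excitatory neuron markers, 1075 and 1324 CPM, against 496 to 909 CPM in the other 10 accumbens libraries. Relative to that sum, Bdnf amounted to 0.807%, 0.813% and 1.13% in wild-type PBS mice and to 1.49%, 1.84% and 1.63% in wild-type morphine mice. In Vdr-/- mice it amounted to 0.831%, 0.81% and 0.619% after PBS and to 2.22%, 2.38% and 2.03% after morphine. On this ratio, chosen after its values were seen, the morphine libraries of each genotype lay above both PBS groups, and the Vdr-/- morphine libraries above the wild-type morphine libraries. With the log2 marker sum as a covariate in the fit, also chosen afterwards, the Bdnf change was 0.83 ± 0.14 in wild-type mice (limma, adjusted p = 0.0858) and 1.59 ± 0.14 in Vdr-/- mice (adjusted p = 1.41e-05). With this covariate, 0 of 15788 genes passed with limma when the morphine change was compared between genotypes, and Bdnf was among the genes tested. Slc17a7 made up most of the marker sum in wild-type PBS mouse 3 (747 of 1075 CPM) and Vdr-/- PBS mouse 7 (969 of 1324 CPM). Whether cortical tissue in the punches set the Bdnf level was not tested.

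**Figure D2:**
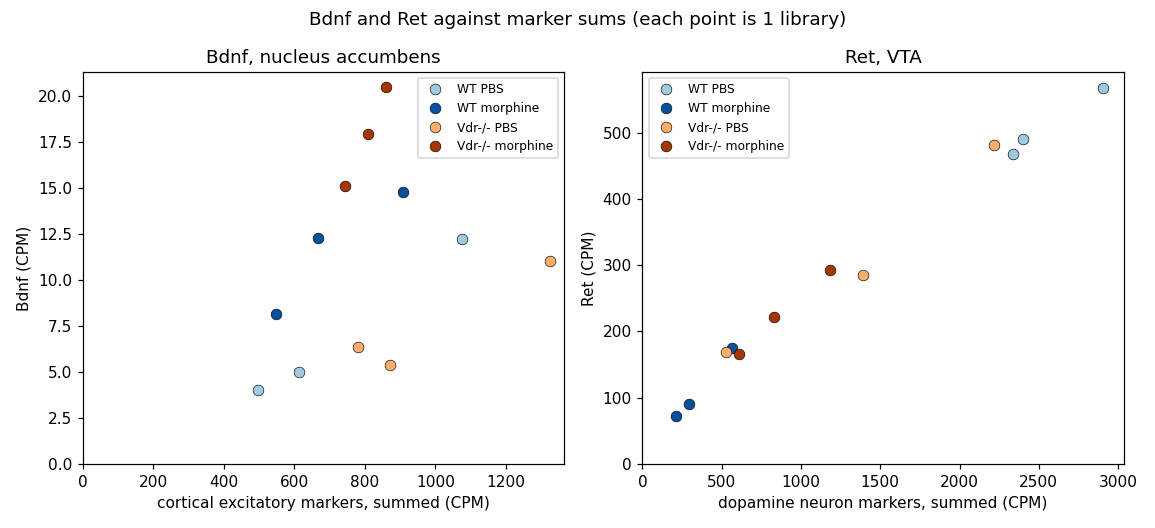
Bdnf (CPM) against the summed cortical excitatory markers in the 12 nucleus accumbens libraries (left), and Ret (CPM) against the summed dopamine neuron markers in the 12 VTA libraries (right); each point is 1 library, coloured by group. Bdnf amounts to 2.03% to 2.38% of the marker sum in the Vdr-/- morphine libraries and 0.619% to 0.831% in the Vdr-/- PBS libraries, and Ret to 19.5% to 33.9% of the dopamine marker sum over the 12 VTA libraries.

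Vgf, the neuropeptide precursor gene, rose in Vdr-/- mice without overlap. It lay at 171, 145 and 157 CPM in Vdr-/- PBS mice and at 248.8, 258 and 290.0 CPM in Vdr-/- morphine mice (log2 fold change 0.71 ± 0.07, limma, adjusted p = 0.000185). In wild-type mice it lay at 186, 179 and 171 CPM after PBS and at 218, 261 and 238 CPM after morphine, without overlap. The wild-type change of 0.39 ± 0.09 missed the threshold with limma (adjusted p = 0.101) and passed with DESeq2 (adjusted p = 0.0176).

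Among the other receptors Ntrk2, Gfra1 and Gfra2 passed in Vdr-/- mice and Ntrk3 did not. Ntrk2 went from 823 to 896 CPM after PBS to 1021 to 1058 CPM after morphine (log2 fold change 0.25 ± 0.05, limma, adjusted p = 0.00831), and Gfra1 from 89.5 to 91.0 CPM to 107 to 127 CPM (0.33 ± 0.06, adjusted p = 0.00342). Neither pair of groups overlapped. Gfra2 went from 31.2 to 44.0 CPM to 44.8 to 51.3 CPM (0.37 ± 0.11, adjusted p = 0.0346), and that call was lost in 5 of 6 fits that left out 1 library. Gdnf and Ntrk3 had changes of -0.02 and 0.03 with adjusted p of 0.968 and 0.782.

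In wild-type accumbens, 0 of the 8 members passed with limma, where 0.813% of 15749 genes did; 4 members had an unadjusted p under 0.05, DESeq2 called 2 (Ret and Vgf) and edgeR 0. Beyond Ret and Vgf these were Ntrk2 (0.40 ± 0.15, limma, adjusted p = 0.242) and Gfra1 (0.29 ± 0.09, adjusted p = 0.187), both with morphine libraries above PBS libraries. The changes of Gdnf, Ntrk3 and Gfra2 lay between -0.67 and 0.31, with adjusted p from 0.363 to 0.563. Without PBS mouse 2, the library that stood apart, Ret (1.20, limma, adjusted p = 0.0468) and Vgf (0.37, adjusted p = 0.0476) passed. The number of genes called then rose from 128 to 627. In that library Ntrk2 was at 633 CPM and Ntrk3 at 183 CPM, the lowest of the wild-type PBS mice. When 1 library was left out, the wild-type changes went as low as 0.25 for Ntrk2 and 0.04 for Ntrk3. The median change of the 8 members was 0.35 in both genotypes, against 0.01 and -0.01 for all genes tested.

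The accumbens comparison of morphine with PBS moved cell markers as well. All 10 medium spiny neuron markers fell in Vdr-/- mice, their sum being 2618 to 2975 CPM after morphine and 3938 to 4543 CPM after PBS, and 3 of 10 fell in wild-type mice (2948 to 3722 against 4529.6 to 5159 CPM). Of 9 astrocyte markers, 5 rose and 1 fell in Vdr-/- mice, and 2 rose in wild-type mice. Of oligodendrocyte and microglia markers, 6 of 10 and 4 of 8 passed as lower in Vdr-/- mice, against 0 of 10 and 1 of 8 in wild-type mice. By size these shifts were not particular to Vdr-/- mice. The median log2 change of oligodendrocyte markers was -0.27 in both genotypes. For microglia markers it was -0.23 in Vdr-/- and -0.41 in wild-type mice, and for astrocyte markers 0.21 and 0.24. Their part in the changes of the members was not tested.

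**Figure D3:**
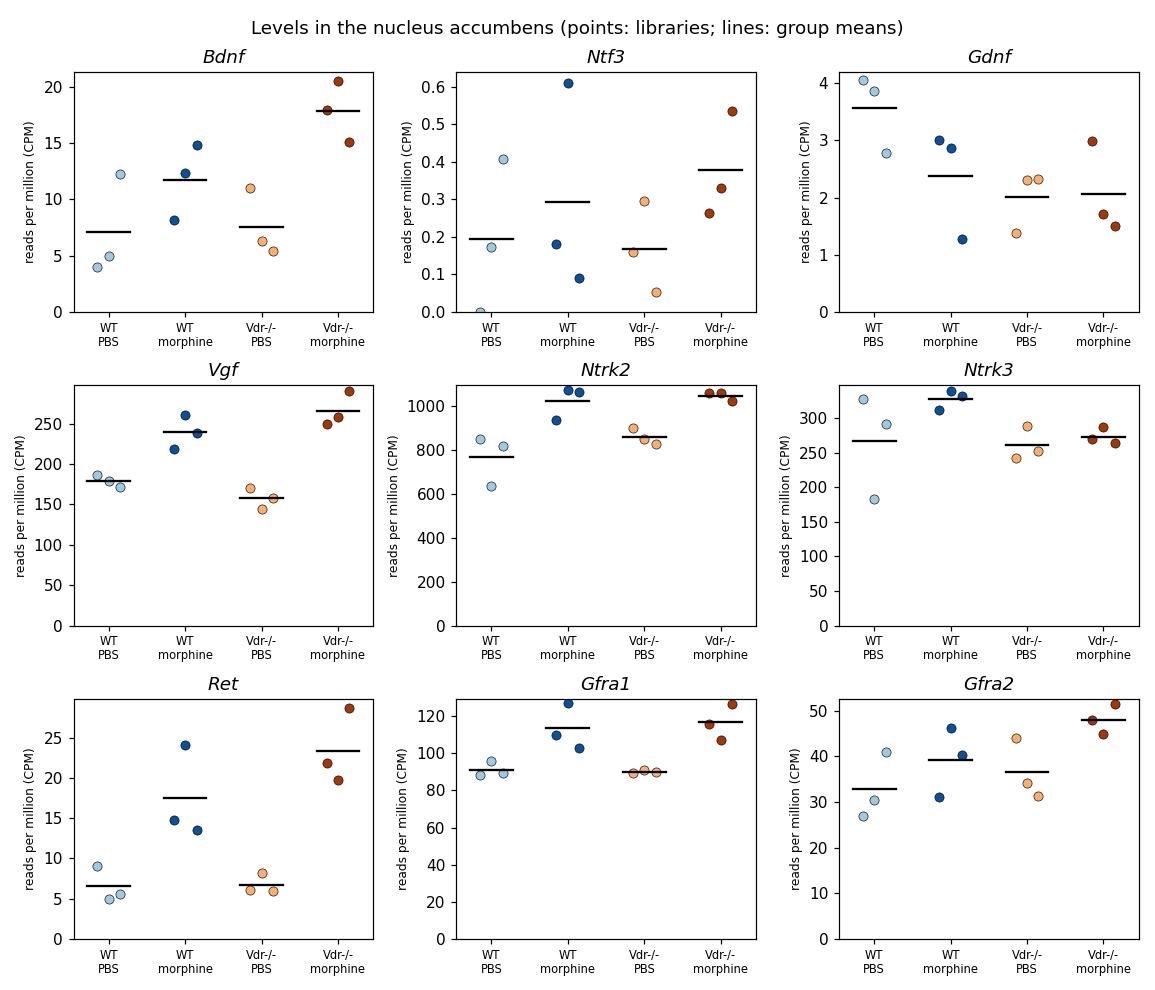
Level (CPM) of each member in the nucleus accumbens in the 4 groups; points are libraries, ordered by mouse number, and lines are means of 3. The Ret, Vgf, Ntrk2 and Gfra1 points after morphine lie above those after PBS in both genotypes, while Bdnf overlaps in wild-type mice through PBS mouse 3 at 12.2 CPM.

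The genotypes were then compared directly in the nucleus accumbens. After morphine, 0 of 8 members differed between Vdr-/- and wild-type mice with limma, where 0.192% of 15638 genes did; 4 had an unadjusted p under 0.05, DESeq2 called 1 (Ntrk3) and edgeR 0. Bdnf was higher in all 3 Vdr-/- libraries (15.1 to 20.5 CPM) than in all 3 wild-type libraries (8.17 to 14.8 CPM), with a log2 difference of 0.64 ± 0.19, an unadjusted limma p of 0.00594 and an adjusted p of 0.427; the exact permutation p was 0.1, the smallest possible. Ntrk3, at 264 to 287 CPM in Vdr-/- mice and 312 to 340.0 CPM in wild-type mice, did not overlap either (-0.26 ± 0.06, limma, adjusted p = 0.179; DESeq2, adjusted p = 0.0223), and it passed with limma without wild-type morphine mouse 1.0 (adjusted p = 0.0381). Ret (0.46 ± 0.19, limma, adjusted p = 0.607) and Gfra2 (0.32 ± 0.12, adjusted p = 0.59) overlapped between genotypes. The differences of Gdnf, Vgf, Ntrk2 and Gfra1 lay between -0.17 and 0.16, with adjusted p from 0.655 to 0.951.

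After PBS, 0 of 8 members differed between genotypes with limma (0.069% of 15933 genes passed), 1 had an unadjusted p under 0.05, and DESeq2 and edgeR called 0. That member was Gdnf, at 1.38, 2.31 and 2.33 CPM in Vdr-/- mice and 4.06, 3.87 and 2.77 CPM in wild-type mice, without overlap (-0.81 ± 0.25, limma, adjusted p = 0.461). Bdnf differed by 0.23 ± 0.45 (adjusted p = 0.883; exact permutation p = 0.6), a difference smaller than the spread between mice. The differences of the other 6 members lay between -0.16 and 0.19, with adjusted p from 0.615 to 0.976.

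Whether the morphine change itself differed between genotypes was tested as an interaction. In the nucleus accumbens 0 of 8 members and 0% of 15788 genes passed with limma, at 916 genes with an unadjusted p under 0.05, and DESeq2 called 0 genes. Among the members Vgf alone had an unadjusted p under 0.05 (interaction 0.32 ± 0.12, limma, adjusted p = 0.832). The interaction of Bdnf was 0.41 ± 0.54 (limma, adjusted p = 0.905). The passing of Bdnf in Vdr-/- mice and not in wild-type mice was therefore not shown to be a difference between the genotypes.

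In the VTA comparison of morphine with PBS, Vgf passed in both genotypes, and the other members that passed were not the same. The difference between genotypes was tested separately as an interaction, in which no member passed with limma. The deposited tables of morphine against PBS in the VTA hold 3 morphine and 2 PBS libraries per genotype, PBS mice 3 (wild-type) and 8 (Vdr-/-) being absent. In wild-type mice Vgf rose and Ret and Gfra1 fell, 3 of 8 members tested against 3.65% of 16187 genes. In Vdr-/- mice Bdnf, Vgf and Ntrk2 rose and none fell, 3 of 8 against 10% of 16364 genes in either direction and 4.74% higher. Gdnf was under the filter on low values and was not tested.

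Ret lay at 567, 491 and 467 CPM in wild-type PBS mice 1, 2 and 3, and at 90.3, 174 and 72.3 CPM in wild-type morphine mice. The groups lay far apart (log2 fold change -2.37 ± 0.34, limma, adjusted p = 0.0241; -2.30 with PBS mouse 3 included, adjusted p = 0.00516). In Vdr-/- mice it lay at 284, 481 and 169 CPM after PBS and at 222, 166 and 292 CPM after morphine, overlapping. The Vdr-/- change was 0.01 ± 0.27 from PBS mice 7 and 9 (limma, adjusted p = 0.991) and -0.37 ± 0.36 with PBS mouse 8, at 481 CPM, included (adjusted p = 0.544).

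Dopamine neuron markers moved with Ret. The sum of 10 such markers was 2340.1 to 2903 CPM in wild-type PBS mice and 213 to 566 CPM in wild-type morphine mice, and 7 of the 10 fell (Th, Slc6a3, Ddc, Slc18a2, En1, Aldh1a1 and Lmx1b). In Vdr-/- mice the sum was 529 to 2217 CPM after PBS and 608 to 1181 CPM after morphine, and 0 of the 10 fell with limma while Nr4a2 rose. Hypothalamic and mammillary markers summed to 21.4 to 122 CPM in wild-type PBS mice and to 817, 198 and 993 CPM in wild-type morphine mice 1.0, 1.1 and 1.2. In Vdr-/- mice they summed to 339.8, 29.4 and 254 CPM after PBS (mice 7, 8 and 9) and to 256, 229.9 and 126 CPM after morphine, so that they were also high in the 2 Vdr-/- PBS libraries with the lower Ret levels. Mouse 1.1, with the least of these markers among the wild-type morphine libraries, also held the most Ret and the highest dopamine sum among them. As a share of the dopamine marker sum, Ret was 19.5% to 20.4% in wild-type PBS mice, 30.6% to 33.9% in wild-type morphine mice, 20.5%, 21.7% and 31.9% in Vdr-/- PBS mice and 24.7% to 27.3% in Vdr-/- morphine mice. The Vdr-/- PBS library at 31.9%, of mouse 9, had the lowest dopamine sum of its group, 529 CPM. The part of the cell makeup of the punches in the Ret change was not tested.

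Gfra1, the GDNF coreceptor, fell with Ret in wild-type VTA, from 129, 119 and 115 CPM after PBS to 65.4, 73.4 and 71.9 CPM after morphine (log2 fold change -0.86 ± 0.09, limma, adjusted p = 0.00996). In Vdr-/- VTA it was at 106, 121 and 81.7 CPM after PBS and 76.4, 74.2 and 83.6 CPM after morphine (-0.26 ± 0.11, limma, adjusted p = 0.177). Ntf3 held 71, 26 and 56 reads in wild-type PBS mice and 6, 12 and 4 reads in wild-type morphine mice. Its change of -2.22 ± 0.51 missed the threshold with limma (adjusted p = 0.0666). It passed with DESeq2 (adjusted p = 0.00948) and with PBS mouse 3 included (-2.32, limma, adjusted p = 0.0164). As a share of the dopamine marker sum, Ntf3 was 0.0593% to 0.109% in wild-type PBS mice and 0.105% to 0.131% in wild-type morphine mice. For Gfra1 the shares were 4.45% to 4.97% and 13.0% to 33.7%. The part of the cell makeup of the punches in the Gfra1 and Ntf3 changes was not tested.

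The wild-type calls of Ret, Gfra1 and Vgf were each lost without morphine mouse 1.2 (adjusted p of 0.0814, 0.0573 and 0.0757), without PBS mouse 1 (0.244, 0.151 and 0.237) or without PBS mouse 2 (0.175, 0.105 and 0.167), fits in which the 3 against 2 comparison had 1 library fewer.

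Vgf moved opposite to Ret and Gfra1 in wild-type VTA. It lay at 136, 145 and 164 CPM after PBS and at 241, 291 and 321 CPM after morphine (log2 fold change 0.97 ± 0.14, limma, adjusted p = 0.0214). In Vdr-/- VTA it lay at 189, 117 and 189 CPM after PBS and at 240.3, 247 and 238 CPM after morphine. Mouse 8, at 117 CPM, is the library absent from the table: without it the change was 0.35 ± 0.04 (adjusted p = 0.00845), and with it 0.59 ± 0.17 (limma, adjusted p = 0.0743), so the estimate grew and the call was lost. Vgf in morphine mice was above all PBS mice in both genotypes.

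Bdnf in the VTA of PBS mice lay at 15.2, 17.2 and 15.1 CPM in Vdr-/- mice and 21.02, 15.5 and 19.5 CPM in wild-type mice. After morphine it lay at 23.8, 25.5 and 28.7 CPM in Vdr-/- mice, all above the PBS libraries (log2 fold change 0.77 ± 0.09, limma, adjusted p = 0.00821; 0.71 with mouse 8, adjusted p = 0.0134). Without PBS mouse 7 this call was lost (adjusted p = 0.0835). In wild-type morphine mice it lay at 26.6, 21.8 and 20.2 CPM, overlapping with PBS (0.30 ± 0.16, limma, adjusted p = 0.297). The exact permutation p of the 3 against 2 libraries was 0.2 in Vdr-/- mice, the smallest possible, and 0.4 in wild-type mice.

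Ntrk2, the BDNF receptor gene, rose in Vdr-/- VTA (0.26 ± 0.06, limma, adjusted p = 0.0355), from 865, 1003 and 917 CPM after PBS to 1100.1, 1058 and 1039.7 CPM after morphine, and that call was lost with PBS mouse 8 included (0.20, adjusted p = 0.0941). The remaining members had changes of 0.20 to 0.34 in wild-type mice (Ntrk2, Ntrk3 and Gfra2, adjusted p from 0.232 to 0.402) and of -0.26 to 1.22 in Vdr-/- mice (Ntf3, Ntrk3, Ret, Gfra1 and Gfra2, adjusted p from 0.177 to 0.991). Oligodendrocyte markers also moved: their sum was 8634 to 9555 CPM after morphine and 12740.1 to 13337 CPM after PBS in Vdr-/- mice, where 9 of 10 fell, and 6596 to 10870.5 against 12807 to 13938 CPM in wild-type mice, where 0 of 10 passed. Of 8 microglia markers, 6 fell in wild-type VTA (sum 204 to 223 CPM after morphine, 334 to 393 CPM after PBS) and 2 in Vdr-/- VTA (219.8 to 249 against 277 to 374 CPM). Their part in the changes of the members was not tested.

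**Figure D4:**
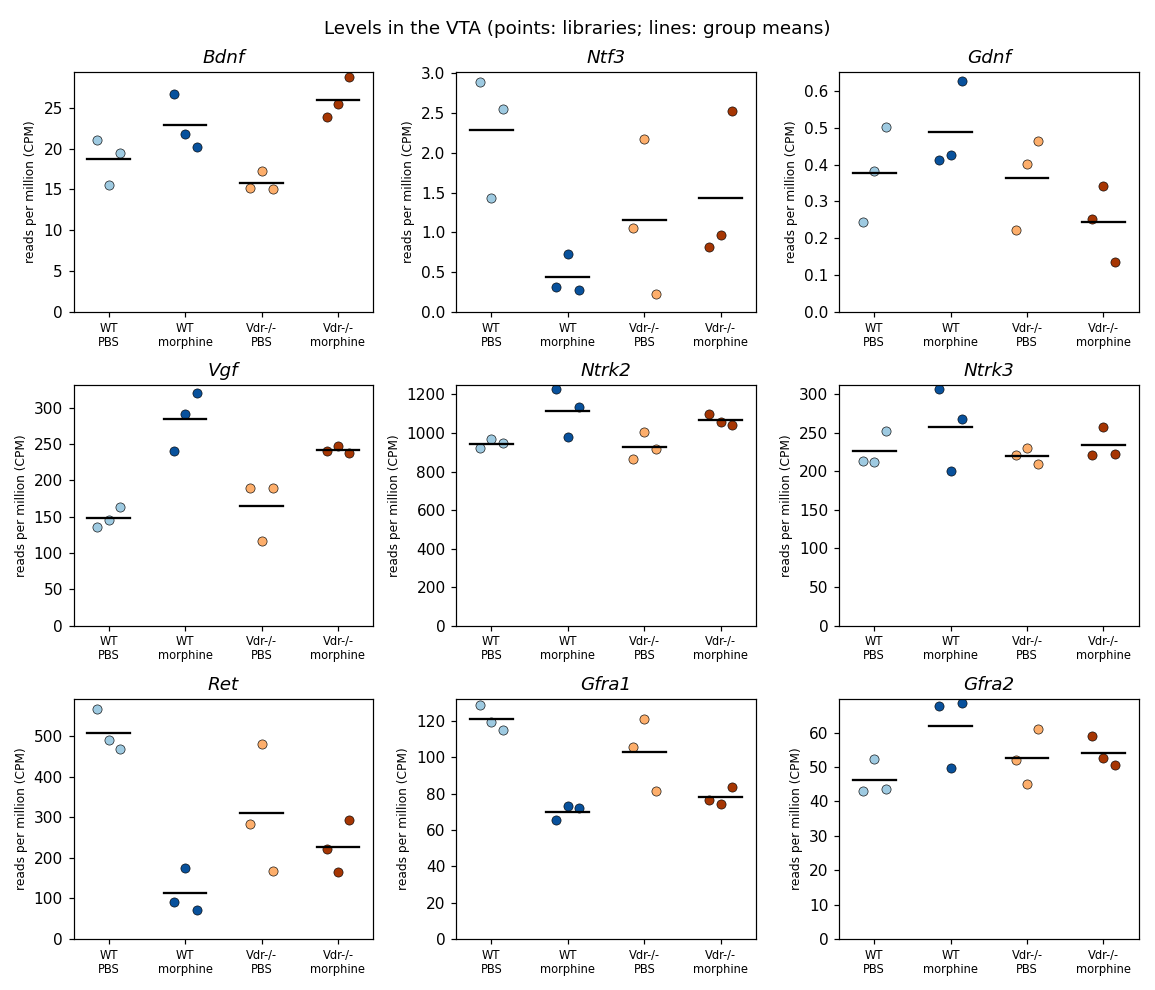
Level (CPM) of each member in the VTA in the 4 groups; points are libraries, ordered by mouse number, and lines are means of 3. Wild-type PBS libraries of Ret lie at 467 to 567 CPM and wild-type morphine libraries at 72.3 to 174 CPM, with both Vdr-/- groups between 166 and 481 CPM.

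Between genotypes the VTA gave no call among the members. After PBS, 0 of 8 members passed with limma (0.39% of 16425 genes did), 1 had an unadjusted p under 0.05, and DESeq2 and edgeR called 0. That member was Ret (-0.85 ± 0.32, limma, adjusted p = 0.3), which passed without Vdr-/- mouse 8 (-1.23, limma, adjusted p = 0.0275); the number of genes called rose from 64 to 370 without that mouse. Bdnf differed by -0.25 ± 0.12 (limma, adjusted p = 0.396; exact permutation p = 0.2), and the other 6 members by -1.36 to 0.16 with adjusted p from 0.398 to 0.833. After morphine, 0 of 8 passed with limma (0.0624% of 16029 genes did), 2 had an unadjusted p under 0.05, and DESeq2 and edgeR called 0. These were Ret (1.07 ± 0.33, adjusted p = 0.487) and Ntf3 (1.51 ± 0.52, adjusted p = 0.516), both higher in Vdr-/- mice, and Bdnf differed by 0.18 ± 0.11 (adjusted p = 0.632; exact permutation p = 0.3). The 10 dopamine neuron markers lay in the directions of Ret, 10 of 10 higher in Vdr-/- mice after morphine (median 1.35) and 10 of 10 lower after PBS (median -1.04), with 0 passing in either comparison, and their part in the Ret differences was not tested. The other 5 members lay between -0.23 and 0.15, with adjusted p from 0.592 to 0.86.

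In the VTA interaction 0 of 8 members passed with limma (0.0553% of 16288 genes did), 5 had an unadjusted p under 0.05, and DESeq2 called 1 (Vgf, adjusted p = 0.0181). The estimates, Vdr-/- minus wild-type, were 2.38 ± 0.51 for Ret (limma, adjusted p = 0.136), 3.44 ± 0.96 for Ntf3 (adjusted p = 0.206) and 0.60 ± 0.16 for Gfra1 (adjusted p = 0.194). They were -0.62 ± 0.16 for Vgf (limma, adjusted p = 0.179) and 0.47 ± 0.20 for Bdnf (adjusted p = 0.385). Without wild-type morphine mouse 1.1 Ret passed (2.76, adjusted p = 0.0179), and without wild-type morphine mouse 1.0 Vgf passed (-0.76, adjusted p = 0.025). With all 12 libraries Ret was at 1.93 (adjusted p = 0.304).

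**Figure D5:**
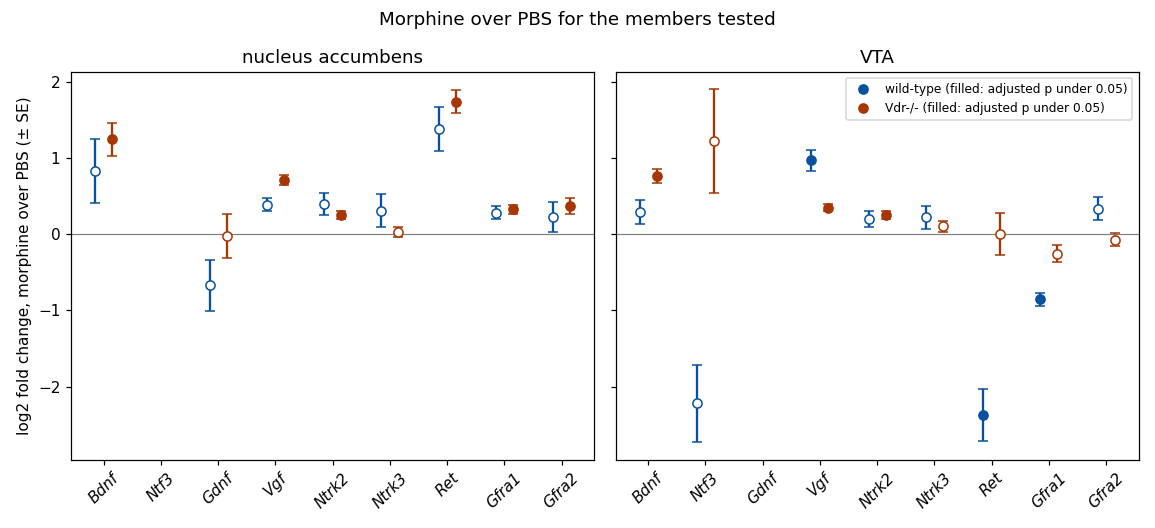
Log2 fold change of morphine over PBS (± SE, on log2(normalized count + 1)) for each member tested, in the nucleus accumbens (left) and the VTA (right), in wild-type (blue) and Vdr-/- mice (brown); filled points passed the adjusted threshold. Accumbens Ret is at 1.39 and 1.74, VTA Ret at -2.37 and 0.01.

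Because both regions came from the same mice, the region dependence of the morphine change was tested on differences within each mouse. Ret and Gfra1 passed in wild-type mice, 2 of 9 members against 1.48% of 16112 genes in either direction and 0.782% higher, and in Vdr-/- mice, 2 of 9 against 1.29% of 16165 genes and 0.643% higher. For Ret the morphine change in the nucleus accumbens exceeded that in the VTA by 3.66 ± 0.19 in wild-type mice (limma, adjusted p = 0.00118) and by 2.10 ± 0.24 in Vdr-/- mice (adjusted p = 0.0214). For Gfra1 the excess was 1.06 ± 0.12 (limma, adjusted p = 0.0126) and 0.71 ± 0.13 (adjusted p = 0.0459). The wild-type Ret call held in 6 of 6 fits that left out 1 mouse, the wild-type Gfra1 call was lost without morphine mouse 1.2 or PBS mouse 1, and both Vdr-/- calls were lost without PBS mouse 7 or any 1 of the 3 morphine mice. The dopamine markers Th, Ddc, Slc6a3, Slc18a2, Aldh1a1 and En1 passed in the same direction in wild-type mice, and 0 of the 10 dopamine markers did in Vdr-/- mice. Bdnf did not pass in either genotype (0.54 ± 0.46 and 0.53 ± 0.28, adjusted p of 0.565 and 0.367). In wild-type mice Ntf3 (2.90 ± 0.89, limma, adjusted p = 0.156) and Vgf (-0.55 ± 0.13, adjusted p = 0.0901) had an unadjusted p under 0.05 without passing.

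A wider list of 76 genes, chosen with earlier results of these data known, held the other neurotrophin ligands and receptors, the other GDNF family members, proteases and carriers that process or release the ligands, adaptors and kinases. In Vdr-/- accumbens 9 of 68 tested rose with morphine and 12 fell. Those that rose most were Ngfr, the p75 neurotrophin receptor (1.88), Pcsk1, a proneuropeptide convertase (0.51), and the adaptor and exchange factor genes Crkl (0.35) and Sos1 (0.34). Those that fell most were the kinase Camk4 (-0.60), the convertase Pcsk2 (-0.41), the adaptor Dok5 (-0.38) and the kinase Map2k5 (-0.36). Together 30.9% of the list passed, against 19.1% of all genes.

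In wild-type accumbens 1 of 68 rose, Ngfr again (2.23 ± 0.32, limma, adjusted p = 0.0354). Its level was 2.00 to 3.998 CPM after PBS and 9.68 to 20.2 CPM after morphine in wild-type mice, and 1.90 to 9.40 CPM against 9.80 to 16.3 CPM in Vdr-/- mice, so that morphine groups lay above PBS groups in both. The Vdr-/- call of Ngfr was not made by DESeq2.

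In wild-type VTA 4 of 69 rose and 3 fell, 10.1% of the list against 3.65% of all genes. The kinase Camk2a (1.08), the sortilin family receptors Sorcs3 (0.57) and Sorcs1 (0.46) and Pcsk2 (0.57) rose, and Cadps2, which acts in dense-core vesicle release (-1.28), the adaptor Gab1 (-0.79) and the small GTPase Rap1a (-0.53) fell. In Vdr-/- VTA 6 of 69 rose and 3 fell, 13% of the list, a share near the 10% of all genes, with Pcsk1 (0.55), Sorcs2 (0.34), Sorcs3 (0.26) and Sos1 (0.25) rising most, and Ngfr (-0.93), Gab1 (-0.51) and Nras (-0.26) falling. The region dependence of the Ngfr change itself was 2.55 ± 0.69 in Vdr-/- mice and did not pass (limma, adjusted p = 0.109).

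Between genotypes and in both interactions 0 genes of the wider list passed with limma, at 2 to 11 genes with an unadjusted p under 0.05; DESeq2 called Gab1 between genotypes in the VTA after PBS and Cadps2 in the VTA interaction, and edgeR called 0 between genotypes. Between regions 33 of 68 were higher in accumbens libraries and 24 in VTA libraries, 83.8% of the list against 71.5% of all genes. The kinase genes Camk2a (2.34) and Camk4 (2.27) were among those higher in the nucleus accumbens, and Mmp9 (-1.50), Sh2b2 (-0.93), Frs3 (-0.84) and Pcsk1 (-0.83) led those higher in the VTA. The morphine change depended on region in wild-type mice for Ngfr (2.37), Cadps2 (1.77) and Pcsk2 (-0.96), and in Vdr-/- mice for Pcsk2 (-0.65) and Camk4 (-0.49).

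As a description, the genes whose log2 level followed each of 4 members best across the 12 libraries of a region, which share depth and tissue makeup, were ranked by Pearson r. Ret in the VTA was followed by Aldh1a1 (r = 0.994), Chrna6 (0.993), Cnpy1 (0.993), Slc10a4 (0.993) and Chrna5 (0.991), among 16029 genes. Aldh1a1 is a marker of a subset of dopamine neurons, and Chrna6 and Chrna5 encode nicotinic receptor subunits. Gfra1 in the VTA was followed by Agpat4 (0.979), Clptm1l (0.977), Pbx3 (0.976) and Sv2c (0.969). In the nucleus accumbens Bdnf was followed by Nptxr (0.959), Srrm4 (0.951), Ptgs2 (0.950), Fam19a1 (0.947) and Tmem108 (0.943), among 16004 genes, and Vgf by Otx2 (0.949), Gng12 (0.949), Lipa (0.949), Sik1 (0.947) and Ppt2 (0.942).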

How the data were processed

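RNA-seq libraries of 24 micropunch samples were analysed. Per the study's methods, the authors trimmed adapters with Trimmomatic 0.36, mapped reads and counted them per gene with STAR 2.4.2a on the GENCODE mouse annotation (GRCm38, release not given in the sources used here), and used DESeq2; the processing notes also name CASAVA 1.8. The 8 deposited tables, 1 for each pair of groups, hold a normalized signal, gene counts divided by a size factor per library. In all 46 library columns, 100% of values were whole multiples of 1 read (tolerance 0.01). Of the 22 libraries present in 2 tables, all but the VTA library of wild-type morphine mouse 1.1 were compared between tables. The reads recovered were the same in both. The reads of mouse 1.1 in the VTA came from its table of morphine against PBS, without this comparison.

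In each comparison limma 3.58.1 (trend, two-sided) was run on log2(value + 1) for genes whose mean reached 10, with Benjamini-Hochberg adjustment over all genes tested and a threshold of 0.05. Region comparisons used differences within each mouse, since both regions came from the same animals. Interactions used the libraries of both morphine tables of a region. Bdnf was also tested with exact two-sided permutation over libraries. DESeq2 1.42.0 and edgeR 4.0.16 were run on the recovered reads. The limma fits were tested on simulated data. CPM used the reads on genes of each library, and exon lengths came from GENCODE M21. Other alternatives were a pseudocount of 5, no filter, library size scaling, leaving out libraries, all PBS libraries of the VTA and, chosen after seeing the data, a cortical marker covariate.

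Members are given in every library; a change is given with its statistics where its unadjusted limma p or its DESeq2 adjusted p was under 0.05, for Bdnf always, and otherwise as a range. Pathway genes named were those past the threshold, up to 4 in each direction. Some genes that this rule or the ranking by likeness would name are not reported here. The members and lists were chosen with earlier results of these data known. The p-values measure the spread between the libraries of these mice, which holds differences of punch and library preparation as well as of animals. PBS and morphine libraries share controls across comparisons: each group enters a genotype and an injection comparison. Software was R 4.3.3 and Python 3.11.15, with pandas 2.3.3, numpy 2.4.6, matplotlib 3.10.9 and scipy 1.17.1.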

Additional observations from a re-analysis of the deposited data

Results flagged for a closer look

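The morphine change of Ret and of Gfra1 differed between the nucleus accumbens and the VTA of the same mice, by a test of the difference itself. For Ret the change in the nucleus accumbens exceeded that in the VTA by 3.66 (log2) in wild-type mice and by 2.10 in Vdr-/- mice, and for Gfra1 by 1.06 and 0.71. Only the wild-type Ret call held in every fit that left out 1 mouse. In wild-type mice the direction differed, with both genes higher after morphine in accumbens libraries and lower in VTA libraries. The accumbens rise itself did not pass with limma for Ret (adjusted p = 0.0804) or Gfra1 (adjusted p = 0.187). With DESeq2 it passed for Ret alone (adjusted p = 0.000348). The dopamine marker sum of the VTA libraries was 213 to 566 CPM in wild-type morphine mice and 2340.1 to 2903 CPM in wild-type PBS mice, and its part in these differences was not tested. Dixon's test for a single far value was not applied, since the groups hold 3 libraries.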

How the results depend on the processing

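Of 107 member changes tested, 23 changed sign in a fit that left out 1 library; 0 of these had passed, and their main values were at most 0.41 in size (log2; adjusted p of 0.65 or more). With DESeq2 3 changed sign (Ntrk3 for genotype in accumbens after PBS, Gdnf for morphine in Vdr-/- accumbens, Ret for morphine in Vdr-/- VTA), and with all 3 PBS mice Ret (-0.37) and Gfra2 (0.04) did in Vdr-/- VTA. The Bdnf genotype difference in the nucleus accumbens after PBS ranged from -0.0829 (without mouse 1) to 0.7248 when a wild-type library was left out, was -0.0787 to 0.4366 when a Vdr-/- library was left out (lowest without mouse 7), and was -0.46 with the cortical marker covariate, chosen after seeing the data; the Bdnf interaction there ranged from -0.0817 (without PBS mouse 3) to 0.7224 when a wild-type PBS library was left out. The cause was not tested. A pseudocount of 5, no filter and edgeR changed no call of a member.

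DESeq2 called fewer genes than limma for morphine in Vdr-/- accumbens (2124 against 3018) and for region (11320 against 11546), and 0 like limma in the accumbens interaction. It called more elsewhere: 65 against 11 (genotype, accumbens, PBS), 282 against 64 (VTA, PBS), 52 against 30 (accumbens, morphine), 94 against 10 (VTA, morphine), 514 against 128 (morphine, wild-type accumbens), 1423 against 591 (wild-type VTA), 1936 against 1639 (Vdr-/- VTA) and 193 against 9 (VTA interaction). The VTA interaction gave 27 without a filter and 0 with all 12 libraries, and wild-type VTA 2001 with all 3 PBS mice. The cortical covariate gave 2 and 35 for genotype after PBS and for morphine in wild-type accumbens. Region gave 6348 within wild-type morphine and 7268 within wild-type PBS mice, against 11546. Mice pair the regions, and without the replicate block region dependence gave 398 against 238 genes in wild-type and 349 against 209 in Vdr-/- mice, with no call of a member changed.

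Leaving out 1 wild-type or 1 Vdr-/- library, genes called between genotypes numbered 6 to 28 or 2 to 5 (accumbens, PBS), 13 to 20 or 18 to 370 (VTA, PBS), 19 to 47 or 14 to 19 (accumbens, morphine) and 6 to 49 or 5 to 36 (VTA, morphine). Leaving out 1 morphine or 1 PBS library, those changed by morphine numbered 0 to 21 or 4 to 627 in wild-type accumbens, 1633 to 2135 or 1566 to 3133 in Vdr-/- accumbens, 64 to 2817 or 0 in wild-type VTA and 329 to 2272 or 0 to 385 in Vdr-/- VTA. Vdr-/- accumbens gave 1633 without morphine mouse 2.1 and 1965 without 2.2, and the genotype count there after morphine was 17 without mouse 2.2. Interactions gave 0 to 1 in the accumbens and, in the VTA, 0 to 226, 0 to 1, 0 to 35 and 0 to 56 without a wild-type morphine, wild-type PBS, Vdr-/- morphine or Vdr-/- PBS library. Morphine in Vdr-/- VTA gave 653 without morphine mouse 2.1. Region dependence gave 5 to 152 (104 without mouse 1.0) or 19 to 355 in wild-type and 0 to 20 or 16 to 722 in Vdr-/- mice. In Vdr-/- VTA Vgf lost its call without PBS mouse 7 or 9 (adjusted p of 0.0894 and 0.0511), and Ntrk2 in 4 fits (0.0667 to 0.254). Low reads limit Ntf3 and, in the VTA, Gdnf.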
